A study of Homo sapiens with 3 samples.

Results

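Vascular endothelial growth factors (VEGFs), their neuropilin coreceptors and the class 3 semaphorins, which bind the same coreceptors, were followed over 3 arrays of HSC-3, an established line of human tongue squamous carcinoma. The members were 10 genes chosen by name, VEGFA, VEGFB, VEGFC, PGF, NRP1, NRP2, SEMA3A, SEMA3B, SEMA3C and SEMA3F, out of 17556 genes named on the array. They were found by gene symbol in the platform annotation and were read by 11 of the 24454 gene probes kept, SEMA3F by 2 probes and each other gene by 1. The VEGFA probe carries the older symbol VEGF. The transcript forms that each probe reads were not worked out here.

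HSC-3 cells were left without transfection, were transfected with a GFP (green fluorescent protein) plasmid, or were transfected with a plasmid for full-length DKK3 with an HA tag. DKK3 is a secreted relative of the Wnt inhibitor DKK1. All were grown in medium with 10% serum and, per the labels, RNA was extracted 24 hours after transfection, amplified and labelled with Cy5. The GFP array carries the transfection of a plasmid without DKK3. DKK3 minus GFP thus addresses a DKK3 plasmid in place of a GFP plasmid. GFP minus untransfected addresses transfection together with the GFP plasmid. Neither can be told apart from differences between single cultures or arrays. Each group was 1 array with no replicate, so no test could be made, and precision is limited by having 3 arrays in all. The 3 comparisons share arrays and are not independent of one another. One sentence of the labels also names transfected cultures of another line, C2C12, while the titles and sources of all 3 samples name the tongue line.

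VEGFA, VEGFB, VEGFC and placental growth factor (PGF) are secreted ligands of receptor tyrosine kinases on blood and lymphatic endothelium, and carcinoma cells are a common source of them. Neuropilin-1 and neuropilin-2 have short cytoplasmic tails and bind both VEGFs and class 3 semaphorins, which signal through plexins and were first known as guidance cues that repel axons. Secreted semaphorins can therefore compete with VEGFs for the same coreceptor, and carcinoma cells can carry ligands, coreceptors and plexins together.

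None of the 10 genes differed by 2-fold between any pair of arrays after normalization. VEGFC, the ligand best known for lymphatic vessel growth, was highest on the DKK3 array, and SEMA3C, a semaphorin that binds both neuropilins, was lowest there, at 0.598 of its GFP level. After normalization VEGFA, NRP1 and SEMA3A stood slightly higher on the DKK3 array than on both others, while the unnormalized VEGFA and NRP1 spots did not. For DKK3 minus GFP these values, 0.10, 0.14 and 0.18, were below 0.187. That figure combines the within-array SDs of the positive control spots over the 2 arrays, and is not an SD of their differences. Around the control median, those differences ran from -0.09 to 0.14 at the 32 control spots of blocks 5 to 17. SEMA3A at 0.18 lay above that range. In blocks 1 and 21 the control differences ran wider, from -0.55 to 0.35. For DKK3 minus untransfected the combined figure was 0.192, and SEMA3A alone of these genes passed it, at 0.23. In that comparison the 32 control spots of blocks 5 to 17 ran from -0.09 to 0.10. The sections of the array that hold VEGFC, VEGFB, PGF and SEMA3C were themselves shifted between arrays, and the values of near spots are given with each of these genes.

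VEGFC and SEMA3C were the 2 genes with the largest differences from the untransfected array. For DKK3 minus GFP, VEGFB at -0.27 was further from 0 than VEGFC at 0.23. The 250 bases before the listed starts of VEGFC and SEMA3C are shown. The sequences at the 2 listed starts of SEMA3C can thus be set beside that of VEGFC. All are from RefSeq on GRCh38.p14, written 5′ to 3′ on the minus strand on which both genes lie, with GC boxes (GGGCGG on either strand) and the κB motif of the NF-κB factors in capitals.
VEGFC start, chr4:176792923-176793172: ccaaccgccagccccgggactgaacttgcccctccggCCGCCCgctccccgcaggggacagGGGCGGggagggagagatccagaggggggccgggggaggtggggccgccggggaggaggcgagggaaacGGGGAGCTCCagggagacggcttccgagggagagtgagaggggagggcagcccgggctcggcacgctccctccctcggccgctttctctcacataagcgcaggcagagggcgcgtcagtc
SEMA3C first start, chr7:80922390-80922639: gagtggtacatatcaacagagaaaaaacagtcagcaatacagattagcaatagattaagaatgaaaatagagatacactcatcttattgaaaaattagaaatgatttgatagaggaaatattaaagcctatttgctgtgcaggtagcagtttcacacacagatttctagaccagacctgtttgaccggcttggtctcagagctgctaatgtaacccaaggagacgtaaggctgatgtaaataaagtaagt
SEMA3C other start, chr7:80919052-80919301: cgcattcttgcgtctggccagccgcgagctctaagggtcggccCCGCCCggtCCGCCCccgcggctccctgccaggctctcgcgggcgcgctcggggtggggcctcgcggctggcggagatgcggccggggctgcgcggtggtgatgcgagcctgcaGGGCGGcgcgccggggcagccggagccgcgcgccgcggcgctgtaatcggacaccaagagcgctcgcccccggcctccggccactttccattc

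The VEGFC window was 74% G and C. It held 2 GC boxes, beginning 213 and 189 bases before the start, and 1 κB match, beginning 120 bases before it. The window at the first SEMA3C start was 36.4% G and C, against a median of 58% over all windows, and matched none of the 6 motifs searched on both strands. The other SEMA3C start was 77.6% G and C with 3 GC boxes. Of 35116 windows of 250 bases, 42.6% held a GC box, 9.96% the κB motif, 18.5% the core of the hypoxia response element (ACGTG), 6.57% an AP-1 site (TGANTCA), 10.7% TATAAA and 3.02% the interferon-stimulated response element. Entries for 7 of the 10 genes were found, and VEGFA, NRP1 and SEMA3A were not among them. Of those 7 genes, SEMA3B held ACGTG in the window at its first start and VEGFB, VEGFC, PGF, NRP2, SEMA3C and SEMA3F did not. A match describes letters only, and which start the HSC-3 cells used was not measured.

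The scale of the measurements frames all values below. Spot intensities are scanner units of brightness, and detection required a spot more than 2 SD above the mean of the 2680 blanks of its array. That limit was 41.0 untransfected, 34.2 with GFP and 36.7 with DKK3. Differences are between normalized log2 intensities, so 1 is 2-fold. Across all probes that passed the limit on either array of a pair, 95% of differences lay between -0.29 and 0.31 for GFP minus untransfected, between -0.32 and 0.33 for DKK3 minus untransfected, and between -0.28 and 0.25 for DKK3 minus GFP. The DKK3 probe, which checks the labels, read 539 on the untransfected, 749 on the GFP and 64328 on the DKK3 array. All 12 squamous markers were detected on every array, among them TP63, KRT5 and KRT14. Of other cell types, 2 of 6 fibroblast, 3 of 5 leukocyte, 3 of 5 neural and 5 of 5 skeletal muscle markers passed the limit on at least 1 array. Of all 24454 gene probes kept, 18057 passed on at least 1 array and 16854 on all 3. Passing the limit was thus common and does not by itself mark a cell type. MYOD1, which defines myoblasts, read 41.8 untransfected, 32.7 with GFP and 34.9 with DKK3, so it passed only on the first. The other muscle markers DES, MYOG, MYH3 and ACTA1 (probe H300020240) passed on all 3 arrays, DES at 102, 106 and 91.1 in that order. The neural marker GFAP read 43.0 untransfected, 117 with GFP and 36.5 with DKK3, which is 1.20 for GFP minus untransfected and below the limit on the DKK3 array. Its part in the members' values was not tested. Both lymphatic endothelial markers, PROX1 and LYVE1, were below the limit on all 3 arrays. Of 9 blood endothelial markers on the array 5 passed on all 3 arrays, VWF, TIE1, ERG, ESAM and EGFL7. ESAM read 206 untransfected, 229 with GFP and 181 with DKK3. The remaining CDH5, TEK, CLEC14A and ROBO4 were below the limit throughout.

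All 11 probes were detected on all 3 arrays, as were 16854 of all 24454 gene probes kept. At 2-fold, 0 of the 11 probes were called for GFP minus untransfected, where 0.256% of all 17964 probes tested were. For DKK3 minus untransfected 0 of 11 were called beside 0.294% of all 18016, and for DKK3 minus GFP 0 of 11 beside 0.258% of all 17471. A count of 0 among so few probes is near those backgrounds and says nothing particular about these genes. The offset shrinks log2 differences, so a 2-fold difference in RNA can fall short of 2-fold on this scale. The members' median difference was 0.0057 for GFP minus untransfected, -0.0021 for DKK3 minus untransfected and -0.033 for DKK3 minus GFP, beside medians over all probes of -0.0030, -0.0050 and -0.0011. Outside the central 95% lay VEGFC for GFP minus untransfected, VEGFC, VEGFB and SEMA3C for DKK3 minus untransfected, and SEMA3C for DKK3 minus GFP.

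**Figure D1:**
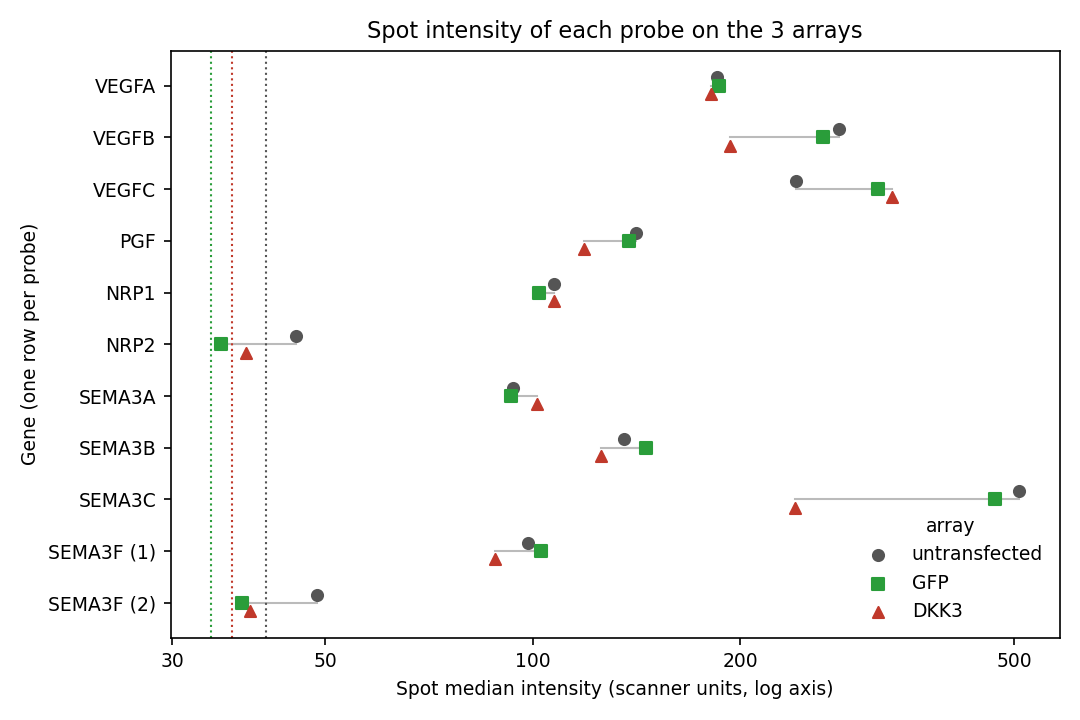
Spot median intensity in scanner units (log axis) of each of the 11 probes on the untransfected (grey circle), GFP (green square) and DKK3 (red triangle) arrays, 1 point an array, with each array's detection limit as a dotted line of its colour. SEMA3C and VEGFB are lowest on the DKK3 array, VEGFC is lowest on the untransfected array, and NRP2 and the second SEMA3F probe lie close to the limits.

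**Figure D2:**
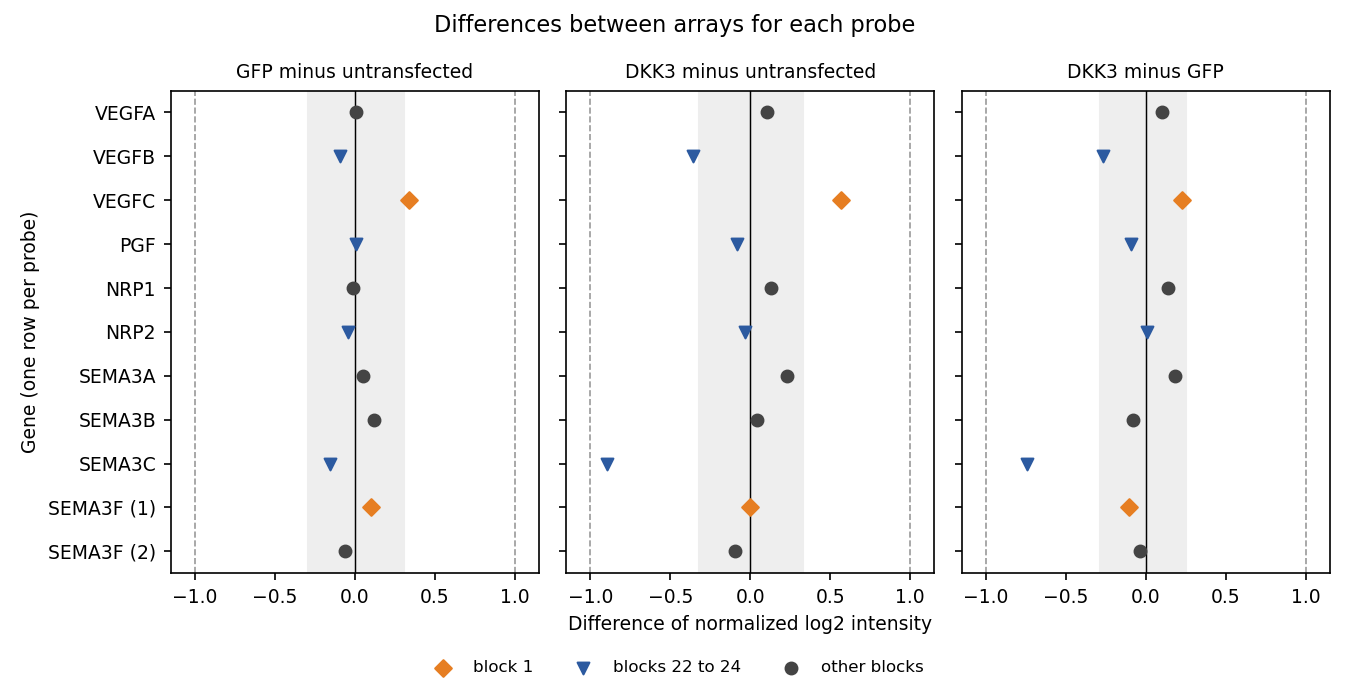
Difference of normalized log2 intensity for each probe in the 3 comparisons, with the central 95% of all probes shaded and 2-fold marked by dashed lines. SEMA3C at -0.74 is the 1 probe outside the shading for DKK3 minus GFP, and the marker shape gives the print position of each probe.

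VEGFA, the main ligand of blood vessel growth, was near level over the 3 arrays. Its spot read 185 untransfected, 186 with GFP and 182 with DKK3. None of the 3 arrays stood apart. After normalization the DKK3 array was 0.10 above GFP and 0.11 above untransfected, and GFP was 0.0057 above untransfected. Of all probes tested for DKK3 minus GFP, 30.2% lay further from 0. Of 17 near spots of like brightness, 13 stood below VEGFA in that comparison. Near spots were taken as detected spots of the same print block within 1 row and 10 columns whose mean intensity was within 2-fold of the member's.

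VEGFB, a ligand of the receptor FLT1 linked mostly to metabolism and survival, was lowest with DKK3. Its spot read 278 untransfected, 264 with GFP and 193 with DKK3, so the first 2 arrays were close and the DKK3 array lay apart. The difference was -0.27 for DKK3 minus GFP, -0.36 for DKK3 minus untransfected and -0.09 for GFP minus untransfected. VEGFB is printed in row 2 of block 23, in the last part of the array, where spots as a whole were dimmer on the DKK3 array. The 17 near spots had a median of -0.11 for DKK3 minus GFP, with 13 below 0 and 5 lower than VEGFB. Relative to that median VEGFB was at -0.16, and for DKK3 minus untransfected at -0.14.

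VEGFC read 241 untransfected, 317 with GFP and 333 with DKK3. Both transfected arrays were thus above the untransfected one, and they lay closer to each other than to it. Normalized, VEGFC was 0.34 higher with GFP and 0.57 higher with DKK3 than without transfection. It was 0.23 higher with DKK3 than with GFP, or 1.17-fold. Of all probes tested, 1.17% lay further from 0 for DKK3 minus untransfected and 7.54% for DKK3 minus GFP.

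The VEGFC spot, in row 2 of block 1, lies among spots that were brighter on both transfected arrays. All 14 near spots were above 0 for GFP minus untransfected, from 0.08 to 0.38 with a median of 0.31, so that VEGFC at 0.34 was 0.03 above its surroundings and below 3 of them. For DKK3 minus untransfected the near median was 0.29, and VEGFC stood above all 14. For DKK3 minus GFP the near spots were balanced, 7 of 14 below 0 with a median of 0.0028, and VEGFC stood above 13 of 14. Relative to near spots, VEGFC was thus level between the GFP and untransfected arrays and 0.22 higher with DKK3 than with GFP.

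The shift at that place was measured in other ways that do not use VEGFC. Positive control spots should read alike wherever they are printed, and the 4 in columns 23 to 50 of block 1 were all above the control median for GFP minus untransfected, by 0.14 to 0.27. The other 4 control spots of that row of block 1, from column 75 on, ran from -0.37 to 0.07 with a median of -0.16, so the shift did not cover the whole block. For DKK3 minus GFP the 4 in columns 23 to 50 were also all above the control median, by 0.02 to 0.14. Those from column 75 on ran from -0.05 to 0.35 in that comparison. VEGFC lies in column 48, and the columns were grouped after their values were seen. Among 35 genes with a probe in block 1 and another outside blocks 1 and 22 to 24, both with a mean spot of at least 100, the block 1 probe had the higher GFP minus untransfected value in 30. For DKK3 minus GFP the block 1 probe was the higher in 15 and the lower in 20. HIF1A is one gene read at both places, by 0.55 on its block 1 probe and 0.12 on its block 19 probe for GFP minus untransfected.

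PGF, a ligand of FLT1, read 141 untransfected, 138 with GFP and 119 with DKK3. The DKK3 reading was the lowest and the other 2 were close. Its differences were small, -0.09 for DKK3 minus GFP, -0.08 for DKK3 minus untransfected and 0.01 for GFP minus untransfected. PGF is printed in row 2 of block 24, and all 16 near spots were below 0 for DKK3 minus GFP, with a median of -0.23. PGF stood above 14 of those 16, so its sign turned when the near median was subtracted, to 0.14 for DKK3 minus GFP and 0.27 for DKK3 minus untransfected.

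NRP1, the coreceptor of VEGFA and SEMA3A, read 108 untransfected, 102 with GFP and 107 with DKK3. The GFP array was slightly the lowest. Normalized, DKK3 was 0.14 above GFP and 0.13 above untransfected, while GFP minus untransfected was -0.01. NRP1 lies in block 8, where near spots were level, with a median of -0.01 for DKK3 minus GFP, and 15 of 16 stood below NRP1. Under the alternative settings its DKK3 minus GFP value ranged from 0.09 to 0.24, and settings that only change which probes are kept left it as it was.

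NRP2, the coreceptor of VEGFC and SEMA3F, was close to the blanks. Its spot read 45.4 untransfected, 35.3 with GFP and 38.4 with DKK3, and on the GFP array it stood 2.38 SD above the mean of the blanks. Normalized differences were -0.04, -0.03 and 0.01 for GFP minus untransfected, DKK3 minus untransfected and DKK3 minus GFP. A difference in NRP2 was not measurable at this brightness, since the added offset of the background correction shrinks log2 differences most for dim spots.

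SEMA3A, the semaphorin that signals through NRP1 and A-type plexins, read 93.8 untransfected, 93.0 with GFP and 102 with DKK3. The first 2 arrays were level and DKK3 was above both. The difference was 0.18 for DKK3 minus GFP, 0.23 for DKK3 minus untransfected and 0.05 for GFP minus untransfected. In block 9, near spots had a median of 0.01 for DKK3 minus GFP, and SEMA3A stood above 29 of 30. Still, 12.6% of all probes lay further from 0 in that comparison.

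SEMA3B, a candidate tumour suppressor, read 136 untransfected, 146 with GFP and 126 with DKK3. As spots, GFP was the highest and DKK3 the lowest, while after normalization the untransfected array was the lowest. SEMA3B was 0.12 higher with GFP and 0.04 higher with DKK3 than untransfected, and DKK3 minus GFP was -0.08. It lies in block 9 as SEMA3A does, and 1 of its 19 near spots was lower for DKK3 minus GFP, around a median of 0.07.

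SEMA3C gave the largest difference of the 11 probes. Its spot read 509 untransfected, 470 with GFP and 240 with DKK3, so the DKK3 array stood far below the other 2. Above the mean of the blanks these are 472, 442 and 208. Normalized, SEMA3C was at -0.74 for DKK3 minus GFP, -0.89 for DKK3 minus untransfected and -0.15 for GFP minus untransfected. In all, 70 of 17471 probes, or 0.401%, lay further from 0 for DKK3 minus GFP. With the blank mean subtracted in place of the offset correction, SEMA3C was at -0.87 for DKK3 minus GFP and at -1.05 for DKK3 minus untransfected, past 2-fold in the second. In the authors' deposited table, SEMA3C stood at 239 untransfected, 185 with GFP and 101 with DKK3.

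Around SEMA3C, in row 2 of block 23, the array was dimmer with DKK3. The 13 near spots had a median of -0.35 for DKK3 minus GFP, from -0.72 to 0.17, with 12 below 0. SEMA3C lay below all 13, and relative to their median it was at -0.39. For DKK3 minus untransfected the near median was -0.55, 3 of the 13 were lower than SEMA3C, and relative to the median SEMA3C was at -0.34. For GFP minus untransfected the near median was -0.24, so that SEMA3C turned from -0.15 to 0.09 relative to it. SEMA3C was thus the lowest of its surroundings against GFP and not against the untransfected array.

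The shift changed along the row. In row 2 of block 23, spots with a mean of at least 100 in columns 1 to 28 had a median of 0.09 for DKK3 minus GFP, with 2 of 18 below 0, while in columns 29 to 104 the median was -0.18, with 32 of 36 below 0, VEGFB and SEMA3C left out. Positive control spots in columns 49 to 102 of block 21 were also lower with DKK3 than with GFP, 6 of 6, by a median of -0.25. The other 2 of that row, in columns 23 and 24, were higher with DKK3, by 0.14 and 0.17, and the columns were again grouped after values were seen. The 32 control spots of blocks 5 to 17 ranged from -0.09 to 0.14. Of 124 genes with a probe in blocks 22 to 24 and another outside these blocks and block 1, the probe inside was the lower for DKK3 minus GFP in 103, with medians of -0.16 inside and 0.05 elsewhere. SEMA3C, VEGFB, PGF and NRP2 have no probe elsewhere on the array, so no second reading of them was possible.

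**Figure D3:**
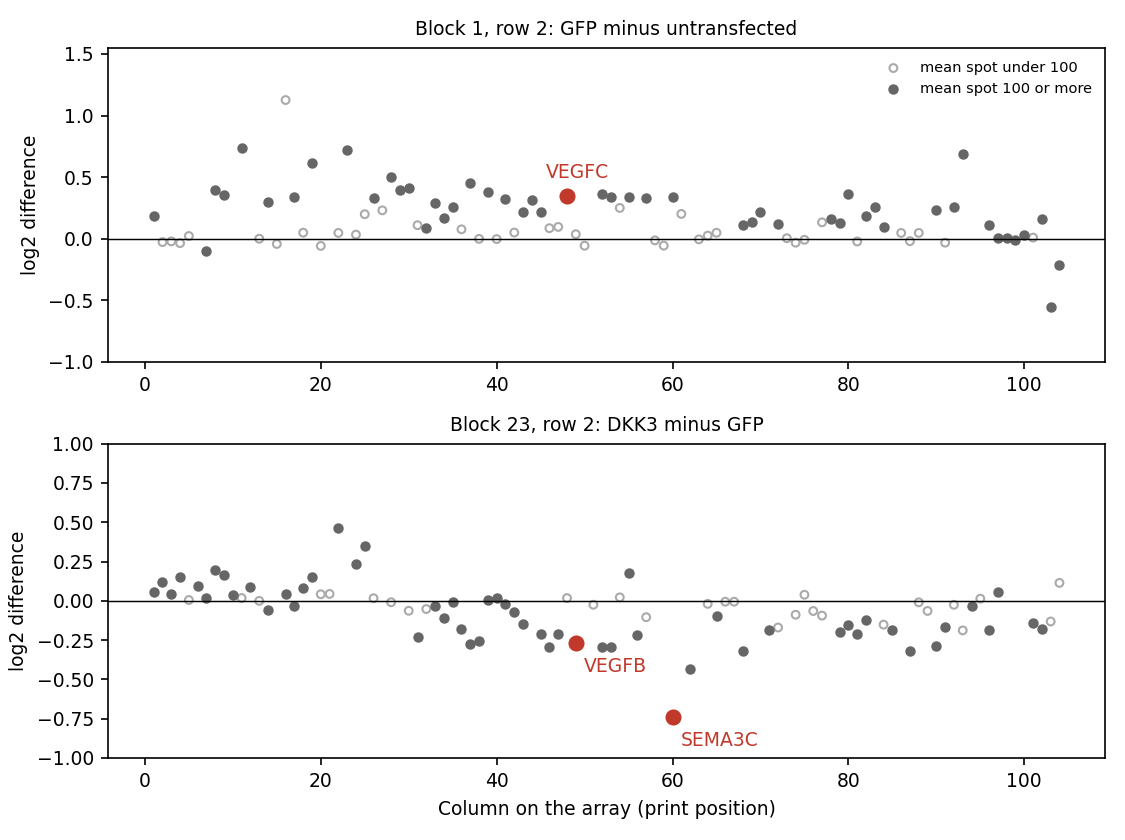
Log2 difference against column along 2 print rows, GFP minus untransfected in row 2 of block 1 and DKK3 minus GFP in row 2 of block 23, 1 point a detected spot, filled where its mean intensity is at least 100. VEGFC lies level with the filled spots around it, and SEMA3C at -0.74 lies below its surroundings, which are themselves mostly below 0.

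**Figure D4:**
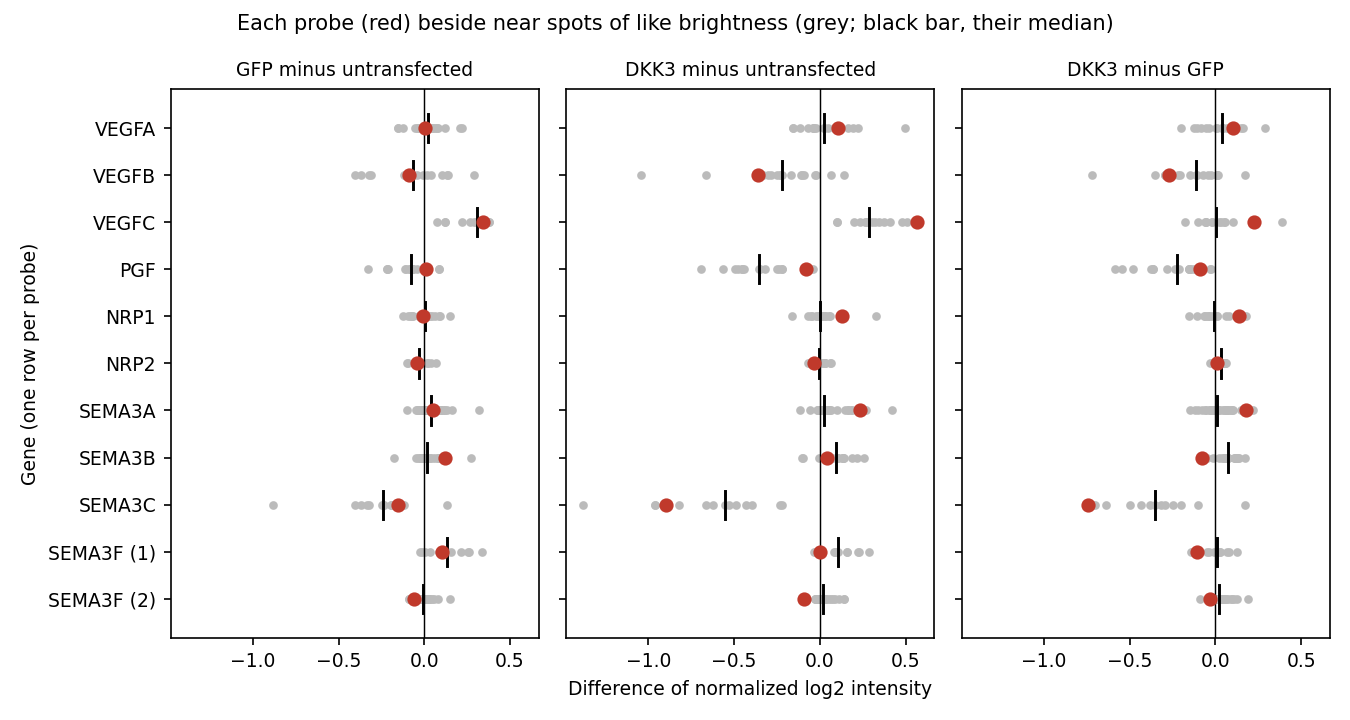
Log2 difference of each probe (red) in the 3 comparisons beside its near spots of like brightness (grey) and their median (black bar). VEGFC stands above all 14 near spots for DKK3 minus untransfected, SEMA3C below all 13 for DKK3 minus GFP, and PGF above most of its 16.

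SEMA3F, a semaphorin that signals mainly through NRP2, was read by 2 probes that do not give the same picture. Probe AHsV10002454, in block 1, read 98.5 untransfected, 103 with GFP and 88.2 with DKK3. Probe H200004207, in block 16, read 48.6, 37.8 and 38.9 in that order and was near the limits on the transfected arrays. The first was 0.10 higher with GFP than untransfected, among near spots with a median of 0.13, and the second was at -0.06. For DKK3 minus GFP they were at -0.11 and -0.03. Their values were below 0 together for DKK3 minus GFP and small in all comparisons.

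By print position, the 4 probes in blocks 22 to 24 had a median of -0.18 for DKK3 minus GFP and the 7 elsewhere 0.10. For DKK3 minus untransfected the 4 were all below 0, with a median of -0.22, and 5 of the 7 elsewhere were above 0, with a median of 0.11. VEGFB, NRP2, PGF and SEMA3C make up the first group. The part of print position in these medians was not tested.

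Of the receptors of these ligands, 1 was detected on all arrays and the others were at the limit. KDR, the main signalling receptor of VEGFA, read 74.1 untransfected, 68.6 with GFP and 64.7 with DKK3, and its differences stayed between -0.04 and 0.02. FLT1, which binds VEGFA, VEGFB and PGF, read 37.7, 30.9 and 37.2 and passed the limit only on the DKK3 array, by less than 1 unit. FLT4, the receptor of VEGFC, read 41.1, 35.3 and 35.8 and did not pass on the DKK3 array. Of 12 receptor and plexin genes 8 were detected on at least 1 array and 0 differed by 2-fold in any comparison. Over all probes tested 0.256% to 0.294% did. A count of 0 in lists as short as this and those below says nothing particular about their genes. Their counts of detected genes stand beside 18057 of all 24454 gene probes detected on at least 1 array. PLXNA1 and PLXNA2, plexins that carry semaphorin signals, were well detected. PLXNA2 was at -0.25 for GFP minus untransfected and 0.11 for DKK3 minus GFP, and PLXNA1 at -0.09 and -0.04.

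Among 17 other semaphorins and VEGFs, 10 were detected and 0 differed by 2-fold, beside 0.256% to 0.294% of all probes. VEGFD, the closest relative of VEGFC, was below the limit on all 3 arrays, as was SEMA3G, while SEMA3D read 46.2 untransfected, 38.8 with GFP and 40.8 with DKK3. The membrane-bound SEMA4C was at -0.15 for GFP minus untransfected and SEMA4D at -0.12 for DKK3 minus GFP, the mean of 2 probes. The list's median was -0.01 for DKK3 minus GFP, with 3 of 9 genes above 0, beside 49.2% of all probes.

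Genes that process the ligands or transmit their signals held 15 detected of 19. Again 0 were at 2-fold, beside 0.256% to 0.294% of all probes. The list's median was 0.04 for DKK3 minus GFP, with 11 of 15 above 0, where 49.2% of all probes tested were above 0. The urokinase PLAU was 0.76 higher with GFP than untransfected on its block 2 probe and 0.16 on its block 22 probe. CCBE1, which helps to activate VEGFC, was at -0.22 for GFP minus untransfected, and its spot lies in block 22. For DKK3 minus GFP the membrane protease MMP14 was at 0.24, the neuropilin adaptor GIPC1 at -0.22 in block 21 and the protease ADAMTS1 at 0.16.

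Hypoxia-inducible factor (HIF) drives VEGFA when oxygen is low. Its 11 pathway genes were all detected, 0 of them at 2-fold in any comparison, beside 0.256% to 0.294% of all probes. HIF1A, the regulated subunit of HIF, was 0.55 and 0.12 higher with GFP than untransfected on the probes already named. VHL, the ubiquitin ligase part that removes HIF subunits, was at 0.29 and EPAS1, another HIF subunit, at 0.20 for DKK3 minus GFP, and the list's median was 0.05. Of 20 HIF targets 19 were detected and 0 differed by 2-fold, beside the same shares of all probes. The targets had medians of 0.02 for GFP minus untransfected, -0.03 for DKK3 minus untransfected and 0.01 for DKK3 minus GFP. PGK1 of glycolysis was at -0.31 on a spot of block 23, the collagen crosslinking enzyme LOX at 0.30 and the mitophagy receptor BNIP3 at -0.28 in block 1, all for DKK3 minus GFP. VEGFA at 0.10 lay inside the range of these targets.

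**Figure D5:**
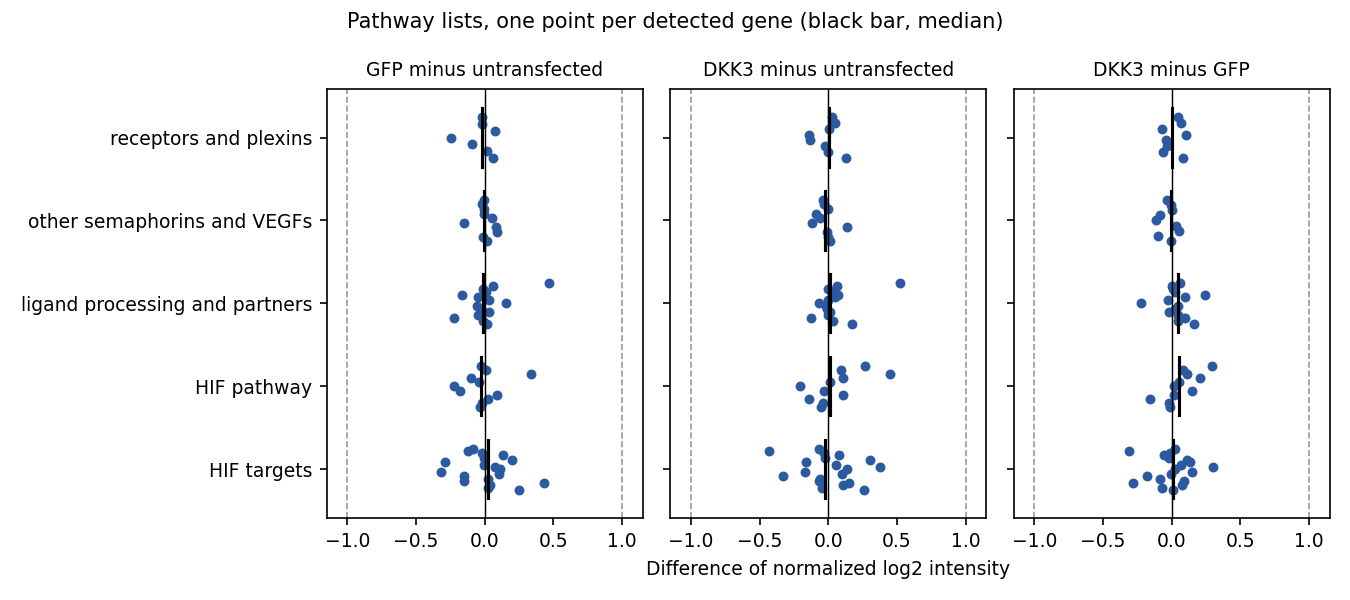
Log2 differences of the detected genes of 5 lists in the 3 comparisons, 1 point a gene with its detected probes averaged, a black bar at the median and dashed lines at 2-fold. No gene of any of these lists reaches 2-fold, beside 0.256% to 0.294% of all probes, and the list medians for DKK3 minus GFP lie between -0.01 and 0.05.

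Genes most like a member were taken by distance between the pair of differences from the untransfected array, over 3 arrays. For VEGFA these were B3GALNT2, SLC52A2 and WNK1, but 630 of 12552 probes lay within 0.05 log2 units, so the VEGFA pattern was a common one. For VEGFC they were GTF2B, LAMB3 and ATF3, of 7 probes within 0.05. The GTF2B spot lies in row 1 and column 63 of block 1, in the block of VEGFC but outside its near spots. LAMB3 (block 9) and ATF3 (block 5) lie elsewhere. LAMB3, a laminin chain of the epithelial basement membrane, read 4082 untransfected, 5331 with GFP and 5253 with DKK3, and ATF3, a stress-induced transcription factor, read 48.3, 58.5 and 69.0. For SEMA3C no probe of 14372 lay within 0.05, and the nearest, GPI, ADK and HTATSF1, were printed in row 1 of block 23, row 1 of block 23 and row 3 of block 24. The GPI spot is also among the near spots of SEMA3C.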

How the data were processed

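RNA of the 3 cultures was read on one-colour arrays of 27456 spots. The authors deposited, per the file headers, the median spot intensity, with 3 scanner gains joined by straight lines, and a value table on a linear intensity scale. That table was found to be a straight line of the spots, reaching 0 near the blank mean, with a median of 25 on each array. A second column headed as background followed the spot (correlation of log2 values from 0.994 to 0.998) and was not subtracted. No source used here names the scanner software. Of 24460 gene probes, 6 marked faulty were left out.

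Intensities were corrected with normexp (offset 50) in limma 3.58.1 (R 4.3.3), then quantile normalized and log2 transformed. Detected probes numbered 17894 on the untransfected, 17060 on the GFP and 17294 on the DKK3 array. A call was a rule of size, 2-fold, with no test. Steps were tested on simulated arrays with random noise and known changes in brighter probes. The simulation held no shift by print position, so it cannot speak to such shifts. Symbols came from an older annotation, 2898 of them updated through RefSeq synonyms. Lists other than the members were averaged over detected probes per gene. The genes named were all members, FLT1, KDR, FLT4 and VEGFD, up to 4 detected genes per list with the largest differences, and the 3 nearest patterns of VEGFA, VEGFC and SEMA3C. SEMA3D and SEMA3G were named after their values were seen. Alternatives were 14 planned settings and 1 added. The members and lists were chosen with earlier results of these data known, and near spots, control spots and pairs of probes were examined after values were seen.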

Additional observations from a re-analysis of the deposited data

How the results depend on the processing

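The count of members at 2-fold was 0 in all settings but 2, both for DKK3 minus untransfected. It was 1 with the blank mean subtracted (SEMA3C) and 2 with the authors' deposited values (SEMA3C at -1.24, and SEMA3F probe H200004207 at -1 from deposited values of 6 and 3). With the authors' deposited values the members' median moved to -0.20 for GFP minus untransfected and -0.25 for DKK3 minus untransfected, while the median of all probes moved to -0.22 and -0.25. With no member called, no call could change sign. Values near 0 did, among them PGF and SEMA3C for GFP minus untransfected, the latter at 0.09 with the near-spot median subtracted. Counts over all probes rose with the blank mean subtracted (189, 250 and 192 probes for GFP minus untransfected, DKK3 minus untransfected and DKK3 minus GFP), with an offset of 16 (67, 91 and 66) and with the authors' deposited values, where 107 were higher and 149 lower, 115 and 378, and 72 and 146, against 41 and 5, 40 and 13, and 21 and 24. With the deposited values centred, the first 2 of these were 123 and 27, and 142 and 70, so the balance depends on the centring. SEMA3C ranged from -0.87 to -0.39 for DKK3 minus GFP over 13 settings, and VEGFC from 0.13 to 0.27 over 14, some of which only change the probes kept. VEGFC for GFP minus untransfected went from 0.34 to 0.03 with the near-spot median subtracted, a setting chosen after seeing the data. NRP2 and SEMA3F probe H200004207 are limited by their low signal over background. No paired analysis was possible because each group is 1 array.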
